A study of Rattus norvegicus with 20 samples.

Results

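The liver transcriptome of rats fed casein, the milk protein that served as control in a feeding study of soybean protein, was examined for the level of each gene and for its spread between rats. The arrays were chosen by their titles, and 5 of the 20 arrays of the series were labelled for the casein diet. Each array held liver RNA of 1 male Sprague-Dawley rat, an outbred stock. The rats arrived at 4 weeks of age, adapted for 5 days on a commercial diet, and then ate a diet with 200 g/kg casein for 21 days. The other 15 rats, of the same sex, stock and age, formed 3 groups of 5 on diets in which part of the casein was replaced by soybean, a conventional cultivar in one and a high-isoflavone cultivar at 2 proportions in the others. In the titles they are named conventional soybean, casein plus high-isoflavone soybean and high-isoflavone soybean, and every diet held some casein. Neither the time of day at which livers were taken nor any fasting before it was stated in the sources used here.

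Hepatocytes make most of the proteins of blood plasma, and they hold the enzymes of the urea cycle, of glucose release and of fat and cholesterol synthesis. Many of these enzymes exist as isoenzymes from different genes, with one form dominant in liver and others in muscle, brain or kidney. Some liver genes are expressed steadily, whereas others follow feeding, the daily clock, growth hormone pulses or immune signals.

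Values are log2 of the array signal, so a difference of 1 is a 2-fold difference in signal. A signal also depends on how well the probes of a gene bind. Among 1040 genes with at least 2 probe sets and above the low limit defined below, the highest and the lowest probe set differed by a median of 2.25 on casein. The order of signals is therefore an order of array signals and not of transcript amounts. Each of 13468 genes was represented by its brightest probe set. A low limit of 3.90 was set at the 90th percentile of 126 genes known from brain, testis, muscle, pancreas, retina, gut, skin, pituitary or kidney, and 2892 genes (21.5%) lay above it on casein. A gene below the limit may still be expressed. The 5 casein arrays had median signals of 2.43 to 2.49, against 2.43 to 2.57 for the soybean arrays. Casein rat 5 had a lowest signal of 0.45, above the -1.55 to -1.02 of the other 4 casein arrays. Casein rat 1 had the lowest of the 5 values in 1039 of the 2892 genes (35.9%). Over all 2892 genes its median difference from the mean of the other 4 casein rats was -0.07.

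The strongest signals came from genes of secreted plasma proteins. The brightest gene was Ambp, which encodes the precursor of alpha-1-microglobulin and bikunin, with signals of 10.13, 10.31, 10.27, 10.32 and 10.05 in casein rats 1 to 5 and a mean of 10.22 ± 0.12 (SD, n = 5). Albumin (Alb) ran from 9.91 in rat 5 to 10.26 in rat 3, with a median of 10.03 and a mean of 10.07 ± 0.13. The fibrinogen gamma chain (Fgg) ran from 9.98 in rat 3 to 10.25 in rat 4, with a median of 10.03 and a mean of 10.07 ± 0.11. The 5 rats spanned 0.27 for Ambp, 0.35 for Alb and 0.27 for Fgg, so no rat stood apart. Apolipoprotein E (Apoe) followed at 10.05 ± 0.07, and Itih3, a hyaluronan-binding plasma protein, at 10.04 ± 0.08. Apolipoproteins were frequent among the 30 brightest genes: Apoa1 averaged 9.90 ± 0.15, Apoh 9.79 ± 0.07, Apoa2 9.79 ± 0.09, Apoc1 9.63 ± 0.08 and Apoc3 9.61 ± 0.04. Transport proteins were frequent too, with transthyretin (Ttr) at 9.78 ± 0.09, retinol-binding protein (Rbp4) at 9.71 ± 0.09, the vitamin D carrier Gc at 9.67 ± 0.10 and the haem carrier Hpx at 9.66 ± 0.04. Protease inhibitors of the serpin family were represented by Serpina3l at 9.98 ± 0.10, Serpina1 at 9.88 ± 0.05 and antithrombin (Serpinc1) at 9.56 ± 0.04. Complement C3 averaged 9.87 ± 0.14, the fetuins Ahsg and Fetub 9.84 ± 0.05 and 9.77 ± 0.18, and the histidine-rich glycoprotein Hrg 9.62 ± 0.24. Fgb, Inhca and Pzp, also secreted proteins, completed this group at 9.84 ± 0.07, 9.50 ± 0.07 and 9.46 ± 0.10.

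Few of the 30 brightest genes encode proteins that stay in the cell. COX2, the mitochondrial gene for a subunit of cytochrome c oxidase, gave 10.24, 10.11, 10.33, 10.20 and 10.15 in the casein rats, a mean of 10.21 ± 0.08. COX2 had a larger SD in 2 of the soybean diets, 0.70 on conventional soybean and 0.54 on casein plus high-isoflavone soybean. Its sister gene COX1 averaged 9.58 ± 0.16. Cyp2c7, a cytochrome P450 of retinoid and steroid metabolism, averaged 9.98 ± 0.23, and the microsomal glutathione transferase Mgst1 9.89 ± 0.06. Stearoyl-CoA desaturase (Scd), which makes oleate, gave 9.36, 9.72, 9.77, 9.83 and 9.81, so rat 1 stood below the other 4. Lactate dehydrogenase A (Ldha) was the 30th gene at 9.45 ± 0.08, and the 31st, vitronectin (Vtn), lay just outside at 9.43. Of the 30 genes, 26 were also among the 30 brightest on conventional soybean, 27 on casein plus high-isoflavone soybean and 26 on high-isoflavone soybean.

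Promoter sequence was read for the bright genes because albumin and the fibrinogen chains are textbook targets of the liver factor HNF1, whose binding site holds GTTAAT as one of its arms. The 250 bases before each gene's start were taken from RefSeq on the rat build GRCr8, and GTTAAT on either strand is in capitals. The windows are chr14:17906980-17907229 on the minus strand for Alb, chr2:170671919-170672168 on the plus strand for Fga and chr2:170700876-170701125 on the minus strand for Fgb.
Alb: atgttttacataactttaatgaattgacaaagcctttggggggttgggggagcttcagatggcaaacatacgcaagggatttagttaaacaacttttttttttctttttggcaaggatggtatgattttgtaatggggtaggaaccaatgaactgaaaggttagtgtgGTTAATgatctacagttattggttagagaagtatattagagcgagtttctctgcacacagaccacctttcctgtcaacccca
Fga: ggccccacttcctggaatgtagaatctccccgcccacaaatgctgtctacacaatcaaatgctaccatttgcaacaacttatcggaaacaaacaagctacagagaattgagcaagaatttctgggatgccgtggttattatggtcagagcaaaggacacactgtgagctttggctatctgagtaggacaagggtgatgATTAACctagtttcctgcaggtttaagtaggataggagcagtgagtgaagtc
Fgb: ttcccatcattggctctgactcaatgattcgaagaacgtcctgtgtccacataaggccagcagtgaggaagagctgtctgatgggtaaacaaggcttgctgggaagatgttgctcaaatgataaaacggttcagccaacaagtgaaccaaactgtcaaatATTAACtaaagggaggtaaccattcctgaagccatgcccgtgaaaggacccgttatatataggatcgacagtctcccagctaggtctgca
Each of the 3 windows held GTTAAT 1 time. Among the 100 brightest genes, 82 had a window in the table and 16 of them (19.5%) held GTTAAT on either strand, against 509 of 11124 measured genes with a window (4.58%). The 16 were Alb, Fgb, Gc, Apoc1, Pzp, Rup2, Fabp1, Hpd, F2, Plg, Fga, Cyp2d2, C4bpa, Itih1, Slc10a1 and Serpina4. The brightest fibrinogen chain, Fgg, was not among the 16, so it either lacked the motif or had no window. A TATA box, searched in the same way as TATAAA, was in 15 of the 82 windows (18.3%) and in 8.32% of the measured genes. The forkhead motif TGTTTAC was in 6 windows (7.32%), against 2.32% of the measured genes. The box of letters CCAAT was in 32 windows (39.0%), against 36.3% of the measured genes. A match is a run of letters and shows no binding.

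By function, 40 of the 100 brightest genes belonged to a list of plasma proteins, of which 78 were measured and 75 lay above the low limit, with a median signal of 8.34. The exceptions were A1bg, A2m and Lifr at 1.48, 1.44 and 1.43. A2m encodes alpha-2-macroglobulin, the acute phase protein that rat liver makes during inflammation. Orm1 and Crp, which rat liver also makes without inflammation, stood at 8.05 ± 0.10 and 8.05 ± 0.19. The listed genes of the respiratory chain and ATP synthase had a median signal of 6.69, with 59 of 60 above the limit and 3 among the 100 brightest (Atp5f1b, Atp5mc3 and Uqcrq). The list did not hold the mitochondrial genes COX1 and COX2, at 9.58 and 10.21, which were also among the 100 brightest. Cytosolic ribosomal proteins had a median of 7.23, with 40 of 42 above the limit. Amino acid breakdown and the urea cycle had a median of 6.13, with 50 of 54 above the limit, led by Hpd of tyrosine breakdown at 9.06 ± 0.11, the urea cycle enzyme Ass1 at 9.04 ± 0.18 and the cysteine dioxygenase Cdo1 at 8.95 ± 0.09. The median over all measured genes was 2.79.

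Cell cycle genes were at the other end, with 1 of 38 above the limit, the cyclin Ccnd1 at 4.49 ± 0.35. Clock genes had 3 of 19 above it, Per3 at 4.62 ± 0.19, Nfil3 at 4.14 ± 0.26 and Tef at 3.99 ± 0.20. Immediate early and stress genes had 6 of 33 above it, led by Jund, which ran from 5.66 in rat 1 to 6.20 in rat 2. Egr2 and Sgk1 followed at 4.94 ± 0.14 and 4.85 ± 0.69. Of the interferon response list 10 of 36 were above, with Ifi27 at 9.05 ± 0.13 and the immunoproteasome subunit Psmb8 at 5.85 ± 0.21, whereas the antiviral genes Ifit1 and Oasl were at 1.46 ± 0.37 and 2.34 ± 0.40.

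In 14 of 46 gene families with at least 2 measured members, 1 member lay above the low limit and the others below it. In 25 families several but not all lay above it, in 5 all did and in 2 none did. Because the limit was set from genes of other tissues, forms of muscle, brain or testis tend to lie below it by its definition. Several families of carbohydrate metabolism held 1 bright liver form, as drawn in the plot of isoenzymes and family members. In gluconeogenesis, fructose-bisphosphatase was read by Fbp1 at 8.85 ± 0.10, with the muscle form Fbp2 at 2.96 ± 0.13, and the cytosolic PEP carboxykinase Pck1 stood at 7.75 ± 0.41, with the mitochondrial Pck2 at 2.86 ± 0.06. Lactate dehydrogenase A was bright, and the heart form Ldhb and the testis form Ldhc stood at 1.61 ± 0.33 and 2.53 ± 0.19. In glycogen metabolism the liver synthase Gys2 stood at 4.78 ± 0.23 and the muscle synthase Gys1 at 2.24 ± 0.15. The liver phosphorylase Pygl stood at 6.40 ± 0.19, with the muscle form Pygm at 2.08 ± 0.18 and the brain form Pygb at 1.77 ± 0.17. Glucose passes the hepatocyte membrane through GLUT2, and its gene Slc2a2 stood at 6.61 ± 0.18. The fructose carrier Slc2a5 lay at the limit, with 3.13 in rat 1 and 4.64 in rat 3 as extremes, and Slc2a1, Slc2a3, Slc2a4, Slc2a8 and Slc2a9 lay between 2.02 and 2.77. Hk1 stood at 4.58 ± 0.15, with Hk2 at 2.29 ± 0.17. The phosphofructokinase genes Pfkl, Pfkm and Pfkp all lay below the limit, at 2.39 ± 0.08, 2.05 ± 0.17 and 1.34 ± 0.25, and a signal below the limit does not show that a gene is silent.

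**Figure D1:**
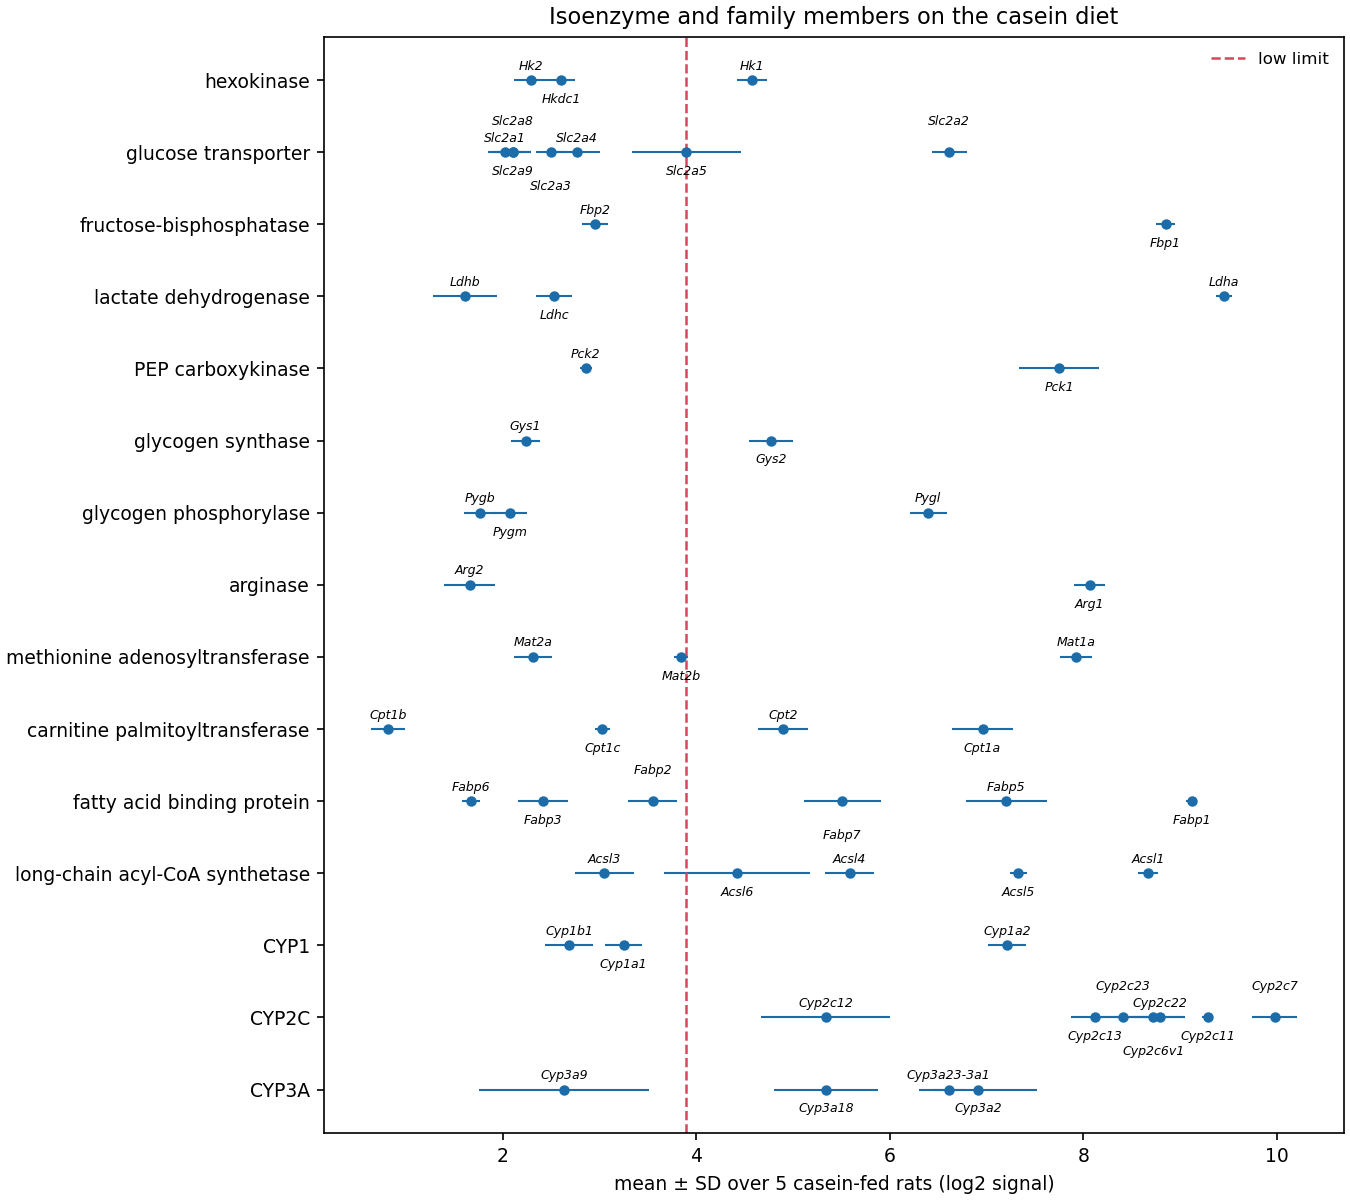
Signal of isoenzymes and family members on the casein diet: each point is the mean over 5 casein-fed rats on the log2 scale (x axis), the bar is ± SD, families run down the page, and the dashed line is the low limit of 3.90. In most families shown 1 or a few members lie right of the line and the others left of it, as with Fbp1 at 8.85 and Fbp2 at 2.96, whereas all 7 CYP2C members lie right of it.

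The families of amino acid and fat metabolism were mixed. The liver arginase Arg1 of the urea cycle stood at 8.07 ± 0.16 and the kidney form Arg2 at 1.66 ± 0.26. The liver methionine adenosyltransferase Mat1a stood at 7.92 ± 0.17 and the general form Mat2a at 2.32 ± 0.20. Carnitine palmitoyltransferase, the entry step of fatty acids into mitochondria, was read by Cpt1a at 6.96 ± 0.32, with the muscle form Cpt1b at 0.81 ± 0.18 and the brain form Cpt1c at 3.03 ± 0.07. Of the fatty acid binding proteins, the liver form Fabp1 stood at 9.12 ± 0.06, but the epidermal form Fabp5 (7.20 ± 0.42) and the brain form Fabp7 (5.51 ± 0.40) lay above the limit too. The intestinal form Fabp2 lay below it at 3.55 ± 0.25, and the adipocyte form Fabp4 had no value on any array. Of the acyl-CoA synthetases, Acsl1 stood at 8.67 ± 0.11, Acsl5 at 7.33 ± 0.09, Acsl4 at 5.58 ± 0.26 and Acsl6 at 4.42 ± 0.76, with Acsl3 below the limit at 3.05 ± 0.31. Both aspartate aminotransferases, Got1 (5.32 ± 0.47) and Got2 (7.69 ± 0.09), and both measured stearoyl-CoA desaturases, Scd and Scd2, lay above the limit. Of the elongases, Elovl5 (8.57 ± 0.11), Elovl2, Elovl6 and Elovl1 lay above it and Elovl3 (0.81 ± 0.34) below. Of the cytochrome c oxidase isoforms, the general subunits Cox4i1, Cox6a1, Cox6b1 and Cox8a stood between 7.43 and 8.21, and Cox4i2, Cox6a2, Cox6b2, Cox7a1 and Cox8b, the forms of lung, testis or muscle, between 1.58 and 3.20. Carbonic anhydrase 3 (Car3), which is bright in male rat liver, stood at 8.87 ± 0.27, while Car1 and Car2 lay at 2.23 ± 0.19 and 2.36 ± 0.18.

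Among drug and steroid metabolising enzymes, all 7 measured CYP2C genes lay above the limit. Cyp2c11, the male form in adult rats, stood at 9.29 ± 0.06, and Cyp2c12, the female form, gave 5.92, 4.33, 4.99, 5.64 and 5.80 with a mean of 5.34 ± 0.67. Probes of this family can bind its other members, so the low Cyp2c12 signal has no sure source. Cyp1a2 stood at 7.22 ± 0.20, and Cyp1a1 and Cyp1b1, which dioxin-like compounds induce, at 3.25 ± 0.19 and 2.69 ± 0.24. Of the CYP3A genes, Cyp3a2 averaged 6.91 ± 0.61, Cyp3a23-3a1 6.61 ± 0.16 and Cyp3a18 5.34 ± 0.53, with Cyp3a9 below the limit at 2.63 ± 0.88. Cyp7a1, the first enzyme of bile acid synthesis, was below the limit at 1.74 ± 1.09, whereas Cyp8b1 and Cyp27a1 of the same pathway stood at 5.99 ± 0.58 and 6.78 ± 0.10. Of the nuclear receptors, the hepatocyte factor Hnf4a was brightest at 7.03 ± 0.20, the bile acid receptor Nr1h4 stood at 4.80 ± 0.21 and the oxysterol receptor Nr1h3 at 5.44 ± 0.12. The xenobiotic receptors Nr1i2 and Nr1i3 lay below the limit at 3.21 ± 0.09 and 1.62 ± 0.44, and Ppara and Esr1 had no value on any array. A missing value is not a measurement of absence, and both Nr1i3 and Ppara are known to act in rat liver.

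The labelled tissue was checked against markers. All 10 hepatocyte markers lay above the limit, with a summed linear signal of 5073 to 5347 on casein and 4556 to 5576 on the soybean diets. Of the other cells of liver, 3 of 6 Kupffer cell markers (Clec4f 6.17, Cd5l 5.18, Cd68 4.01), 3 of 5 endothelial markers (Lyve1 5.23, Kdr 4.81, Stab2 3.98) and 1 of 7 stellate cell markers (Col3a1 6.30) lay above it. None of 4 bile duct, 6 lymphocyte, 2 adipose and 4 muscle markers did. Of 3 red blood cell markers, 1 lay above the limit, haemoglobin beta (Hbb) at 8.34 ± 0.24, and the others stood at 1.95 and 2.97. Of 6 pancreas markers, 1 (Cela1) lay above the limit, at 4.71 ± 0.29. The limit was itself set from genes of other tissues, muscle and pancreas included. The counts for muscle and pancreas markers were therefore largely fixed in advance and are no check of the tissue. In whole tissue, fewer cells of a type and less RNA per cell cannot be told apart.

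The spread between casein-fed rats was small for most genes. The SD over 5 rats had a median of 0.187 over all genes and 0.141 over the 2892 genes above the low limit. With genes split by level into 5 bins of equal size, it was 0.267 in the dimmest bin and 0.140 in the brightest, and spike-in controls, which carry no difference between rats, had a median SD of 0.103. Any pair of casein rats correlated at r = 0.964 to 0.973 over the genes above the limit, which are not independent replicates. Only 169 of the 2892 genes (5.84%) spanned more than 1, that is 2-fold, from the lowest to the highest rat, and 15 had an SD above 1. On the soybean diets the median SD of the same 2892 genes was 0.165, 0.163 and 0.168 on conventional, casein plus high-isoflavone and high-isoflavone soybean. The casein SD was the smallest of the 4 diets in 1036 genes and the largest in 471.

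**Figure D2:**
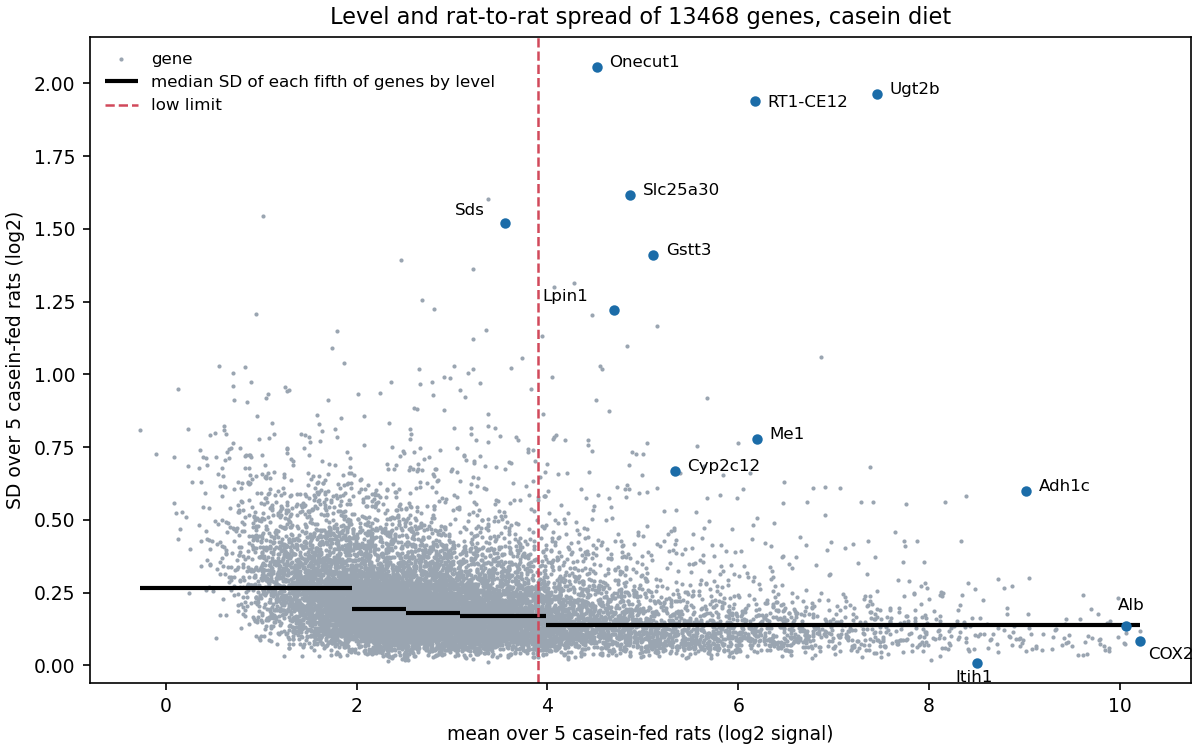
Each grey point is 1 of 13468 genes, with its mean over the 5 casein-fed rats on the x axis and its SD over the same rats on the y axis, both on the log2 scale. Black bars give the median SD of each of 5 bins of genes by level, from 0.267 at the left to 0.140 at the right, and the dashed line is the low limit of 3.90. Onecut1, Ugt2b and RT1-CE12 lie highest, with SDs of 2.06, 1.96 and 1.94, and Itih1 lowest among the labelled blue points at 0.00897.

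The median SD differed by function, as drawn in the plot of SD by gene list. Among genes above the limit, the respiratory chain and ATP synthase had a median SD of 0.089, plasma proteins 0.108 and ribosomal proteins 0.117. Amino acid breakdown and the urea cycle had a median SD of 0.159, cholesterol synthesis 0.201 and fatty acid oxidation 0.215. Sex-dependent liver genes had 0.245, genes of the major histocompatibility complex (MHC) 0.323 and fatty acid synthesis 0.337. Casein rat 1 was the lowest rat in 16 of the 25 fatty acid synthesis genes above the limit, compared with 1039 of all 2892. It was also the lowest in 37 of the 59 respiratory chain genes, so this place was not particular to fatty acid synthesis. Arrays numbered 1 correlated across diets in their deviations, at 0.203 to 0.401, and the cause was not tested. Without casein rat 1 the median SD of the fatty acid synthesis list was 0.190, against 0.309 for the MHC genes and 0.125 over all genes above the limit. Acaca, the acetyl-CoA carboxylase whose SD is the median of the list, gave 5.73 in rat 1 and 6.40 to 6.52 in the others. Without rat 2 the list's median was 0.255, and without rats 3, 4 or 5 it lay between 0.324 and 0.370. The 95th percentile of SD over all genes above the limit was 0.426, and 10 of 25 fatty acid synthesis genes exceeded it, compared with 4 of 75 plasma proteins and 0 of 59 respiratory chain genes. Without rat 1, or without rat 2, 6 fatty acid synthesis genes exceeded the 95th percentile of the remaining rats.

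**Figure D3:**
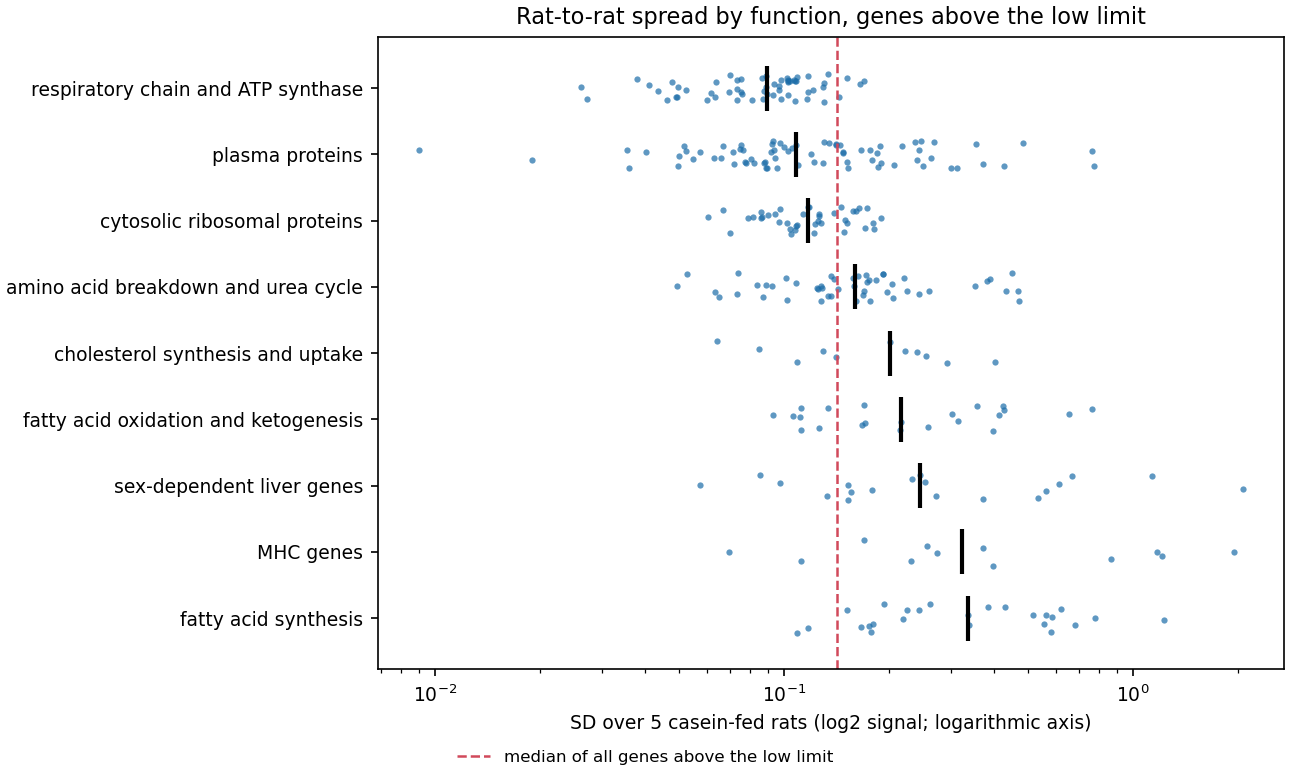
SD over the 5 casein-fed rats (x axis, log2 signal, drawn on a logarithmic axis) of each gene above the low limit, by gene list down the page; the black bar is the median of the list and the dashed line the median of all genes above the limit, 0.141. The medians run from 0.089 for the respiratory chain to 0.337 for fatty acid synthesis, which is 0.190 without casein rat 1.

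The 10 steadiest genes above the limit had SDs of 0.00897 to 0.0285. Itih1, a partner of bikunin in plasma, gave 8.50, 8.49, 8.51, 8.49 and 8.49 in the 5 casein rats. Coagulation factor XII (F12) had a mean of 8.02 and an SD of 0.0189. The others were Scrg1, the water channel Aqp4, Tmem59, Ndufb3 of complex I, Atp5pd of ATP synthase, Setsip, Phyhd1 and Ggact. These genes were picked for a small casein SD, and on conventional soybean their SDs were 0.0284 for Aqp4 to 0.26 for Setsip. None of the 10 passed the comparison of spread between diets given after the MHC genes.

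The 30 genes with the largest SD above the limit spanned SDs of 0.75 to 2.06, and the 31st, Foxa2, had 0.74. Since they were chosen by their SD, the values are given as a description. Onecut1, a hepatocyte transcription factor also called HNF6, had the largest SD with signals of 2.38, 6.51, 5.40, 6.07 and 2.22. Rats 1 and 5 were low and the other 3 high, a ratio of 19.5 between the extreme rats, and a second probe set gave the same highest and lowest rat. Slc25a30, a mitochondrial carrier, gave 3.39, 7.28, 5.37, 4.89 and 3.39, with the same 2 rats low and rat 2 high. Bcl6, a transcriptional repressor, gave 4.51, 2.97, 3.40, 3.16 and 5.66, so rats 1 and 5 were the highest. Each of these genes also varied on all 3 soybean diets, with SDs of 1.48, 1.34 and 2.02 for Onecut1, 1.16, 1.05 and 0.98 for Slc25a30 and 2.09, 1.55 and 1.47 for Bcl6.

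**Figure D4:**
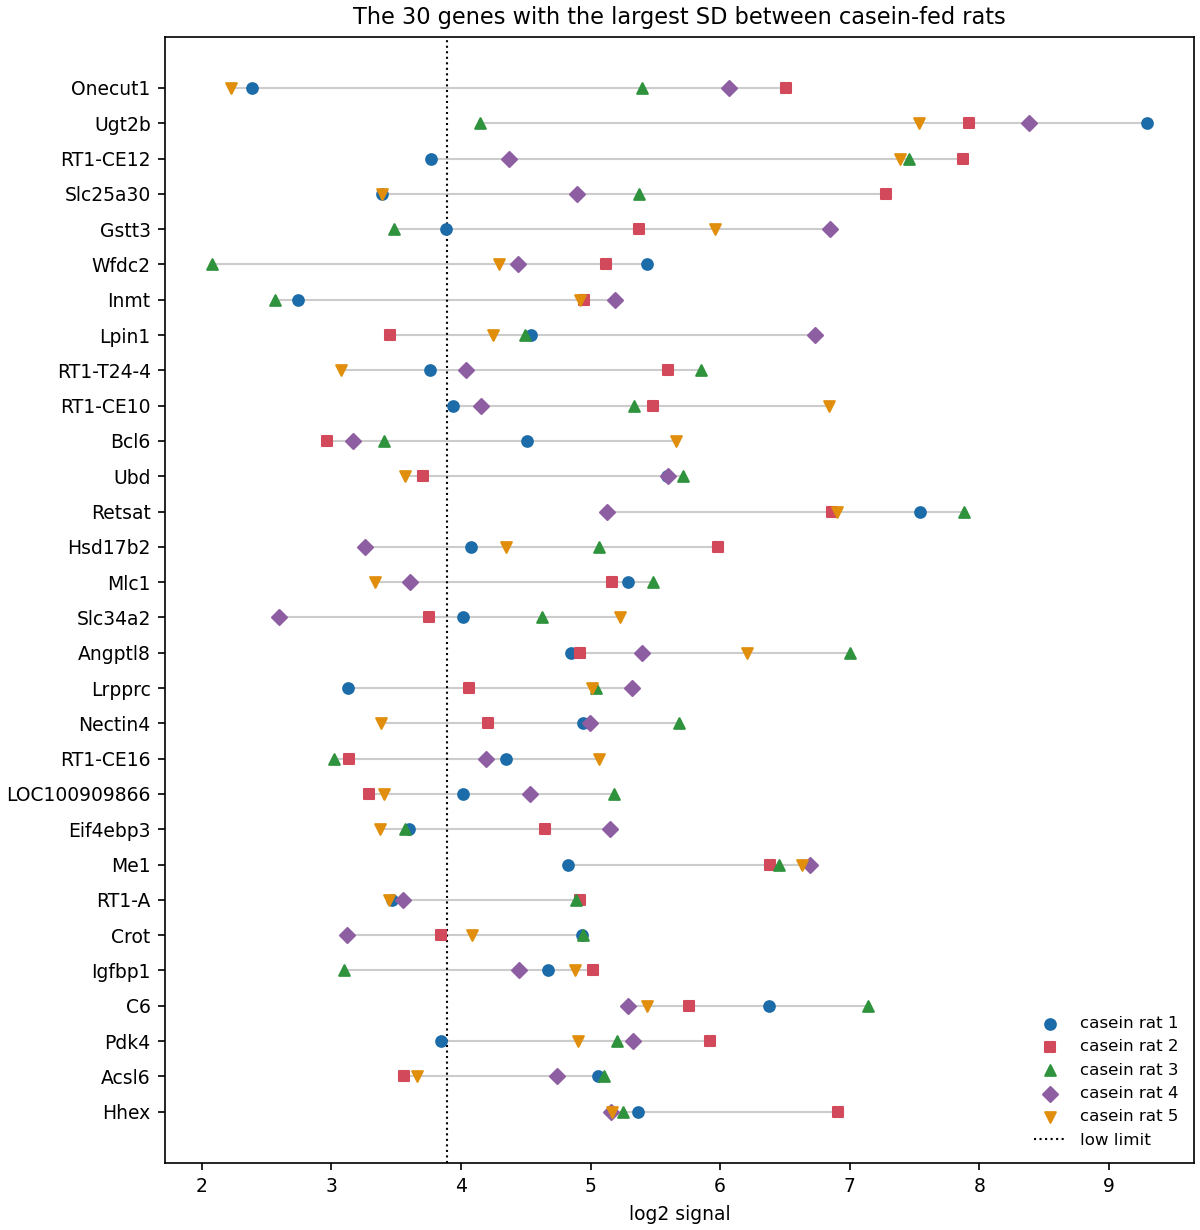
Log2 signal (x axis) of the 30 genes with the largest SD between casein-fed rats, 1 row per gene in order of SD, with a marker for each of the 5 rats and the low limit of 3.90 as a dotted line. Onecut1 is low in rats 1 and 5, Ugt2b in rat 3, and the RT1 genes place rats 2 and 3 together.

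Enzymes that modify drugs, steroids or retinoids were also among the 30. Ugt2b, a glucuronosyltransferase, gave 9.29, 7.92, 4.15, 8.38 and 7.54. Rat 3 was far below the other 4, a ratio of 35.4 between the extreme rats, and the second probe set also had rat 3 lowest. On the soybean diets 1 rat on casein plus high-isoflavone soybean (3.95) and 1 on high-isoflavone soybean (4.65) were as low, and the other 13 lay between 7.76 and 9.06. Gstt3, a glutathione transferase, gave 3.89, 5.37, 3.49, 6.85 and 5.96, and rats 1 and 3 were low. Inmt, an N-methyltransferase, was low in the same rats at 2.75 and 2.56, against 4.91 to 5.18 in the others. Hsd17b2, which oxidises estradiol and testosterone, ranged from 3.26 in rat 4 to 5.98 in rat 2. Retsat, retinol saturase, was lowest in rat 4 at 5.13, against 6.86 to 7.88 in the others.

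Lpin1, a phosphatidate phosphatase of fat synthesis, gave 4.54, 3.45, 4.49, 6.74 and 4.25, with rat 4 high on both probe sets. Serine dehydratase (Sds), just below the limit at 3.55 ± 1.52, was likewise high in rat 4, at 6.14 against 2.17 to 3.46. Malic enzyme (Me1), which supplies NADPH for fat synthesis, gave 4.82, 6.38, 6.45, 6.69 and 6.63, and rat 1 was low. Pdk4, the kinase that shuts pyruvate dehydrogenase, was also lowest in rat 1 at 3.85, against 4.90 to 5.92. Angptl8, a feeding-induced secreted regulator of lipoprotein lipase, was highest in rat 3 at 7.00 and lowest in rat 1 at 4.85. Igfbp1, a carrier of insulin-like growth factors that insulin represses, was lowest in rat 3 at 3.09, against 4.45 to 5.02. Hhex, a transcription factor, was high in rat 2 at 6.91, against 5.16 to 5.37. Acsl6, an acyl-CoA synthetase with an SD of 0.76, was low in rats 2 and 5 at 3.56 and 3.66. Crot, a carnitine acyltransferase of peroxisomes, had an SD of 0.77, and Eif4ebp3, a repressor of translation, had 0.78. Adh1c, the main alcohol dehydrogenase, was the most variable of the 100 brightest genes at 9.02 ± 0.60.

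The remaining genes were mixed. The secreted protein Wfdc2 was low in rat 3 at 2.08, against 4.29 to 5.44, and the phosphate carrier Slc34a2 was low in rat 4 at 2.60, against 3.76 to 5.23. Mlc1 was low in rats 4 and 5, at 3.61 and 3.33, against 5.17 to 5.48. The complement factor C6 had an SD of 0.76, with 7.14 in rat 3 and 5.29 in rat 4. LOC100909866 had an SD of 0.79. For Lrpprc and Nectin4 the other probe sets did not show the spread: their SDs were 0.23 and 0.48 for Lrpprc and 0.23 and 0.20 for Nectin4, against 0.91 and 0.87 for the brightest. The second probe set of Pdk4 had an SD of 0.25, against 0.76 for the brightest, with the same lowest rat. The other probe sets of Crot had SDs of 0.64 and 0.18, and neither had the same highest rat as the brightest. The second probe set of Me1 had an SD of 0.75 and was likewise lowest in rat 1. Of the 30 genes, 9 had another probe set, and in Onecut1, Ugt2b, Slc25a30 and Lpin1 it had the same highest and the same lowest rat.

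Rat 3 was highest in 10 of the 30 genes and rat 2 in 8, and rats 1 and 5 were each lowest in 7. When each casein rat in turn was left out, 20 to 24 of the 30 genes were still among the 30 most variable, and 8 were so whichever rat was left out: Gstt3, Mlc1, Onecut1, RT1-CE10, RT1-CE12, RT1-T24-4, Slc25a30 and Ubd. Over the 2892 genes the SD on casein correlated with the SD on conventional, casein plus high-isoflavone and high-isoflavone soybean at Spearman's rho of 0.49, 0.53 and 0.52, a description across genes that share probe quality and level. Of the 30 genes, 19, 21 and 23 exceeded the 95th percentile of SD on those diets, and 12 did so on all 3.

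MHC genes, which encode the proteins that present peptides to T cells, took 5 of the 30 places. They were the class I genes RT1-CE12, RT1-T24-4, RT1-CE10, RT1-CE16 and RT1-A. RT1-A was outside the MHC list. In that list 4 of the 12 genes above the limit exceeded the 95th percentile of SD, against 145 of all 2892. Except for RT1-A, their probe sets can match other transcripts as well, so the 5 places may not be independent. RT1-CE12 gave 3.77, 7.87, 7.46, 4.37 and 7.39 in casein rats 1 to 5, so rats 1 and 4 stood apart from the others. RT1-T24-4 gave 3.76, 5.59, 5.85, 4.04 and 3.07, and RT1-A gave 3.47, 4.92, 4.89, 3.55 and 3.44. In both, rats 2 and 3 were high and the other 3 low. RT1-CE10 gave 3.94, 5.48, 5.34, 4.16 and 6.84, with rats 1 and 4 low, rats 2 and 3 between and rat 5 high. RT1-CE16 gave 4.34, 3.14, 3.02, 4.19 and 5.06, the reverse order for rats 2 and 3. In all 5 genes rats 2 and 3 lay close to each other, rats 1 and 4 did too, and the pairs did not overlap. The class II gene RT1-Bb, below the limit on average, gave 2.30, 4.78, 4.39, 2.85 and 2.44, again with rats 2 and 3 high.

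The spread was not shared by all MHC genes. B2m, the common partner chain of class I proteins, had an SD of 0.07 at 9.39, the class II regulator Ciita 0.17 at 5.29, and the invariant chain Cd74 0.27 at 5.89. The class I genes RT1-S3 and RT1-M3-1 had SDs of 0.11 and 0.05, although the second lay below the limit. Ubd, a ubiquitin-like gene that lies on chromosome 20 as the RT1 genes do, gave 5.59, 3.70, 5.72, 5.60 and 3.57, with rats 2 and 5 low, so it grouped the rats differently. Of the 19 measured genes of the MHC list, 12 lay above the limit. In the order of protein-coding genes on chromosome 20 in RefSeq on GRCr8, RT1-CE16, RT1-CE12 and RT1-CE10 had positions 129, 131 and 134, RT1-T24-4 had position 100 and Ubd position 64.

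RT1-CE10 and RT1-CE16 are alike in the region before their starts. The 250 bases before RT1-CE10, chr20:3384980-3385229, and before RT1-CE16, chr20:3265444-3265693, both on the minus strand of GRCr8 and from RefSeq, are given with CCAAT on either strand in capitals.
RT1-CE10: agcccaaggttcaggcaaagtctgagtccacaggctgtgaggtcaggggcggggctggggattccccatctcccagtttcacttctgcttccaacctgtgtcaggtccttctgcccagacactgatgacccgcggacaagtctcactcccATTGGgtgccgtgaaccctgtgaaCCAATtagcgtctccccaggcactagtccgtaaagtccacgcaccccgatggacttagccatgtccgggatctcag
RT1-CE16: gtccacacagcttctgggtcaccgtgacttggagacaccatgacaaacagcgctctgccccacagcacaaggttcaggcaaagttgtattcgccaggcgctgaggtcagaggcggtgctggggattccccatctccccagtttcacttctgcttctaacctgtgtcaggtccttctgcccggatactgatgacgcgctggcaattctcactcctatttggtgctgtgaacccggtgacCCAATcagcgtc
In a local alignment 164 of 185 aligned bases of the 2 windows were the same (88.6%). The RT1-CE10 window held CCAAT 2 times and the RT1-CE16 window 1 time. The probe sets of RT1-CE12, RT1-CE10, RT1-T24-4 and RT1-CE16 all carry the x suffix, which the maker of the arrays gives to sets with probes that match other transcripts as well. Which copy, or which allele of it, gave the signal in each rat is therefore uncertain.

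**Figure D5:**
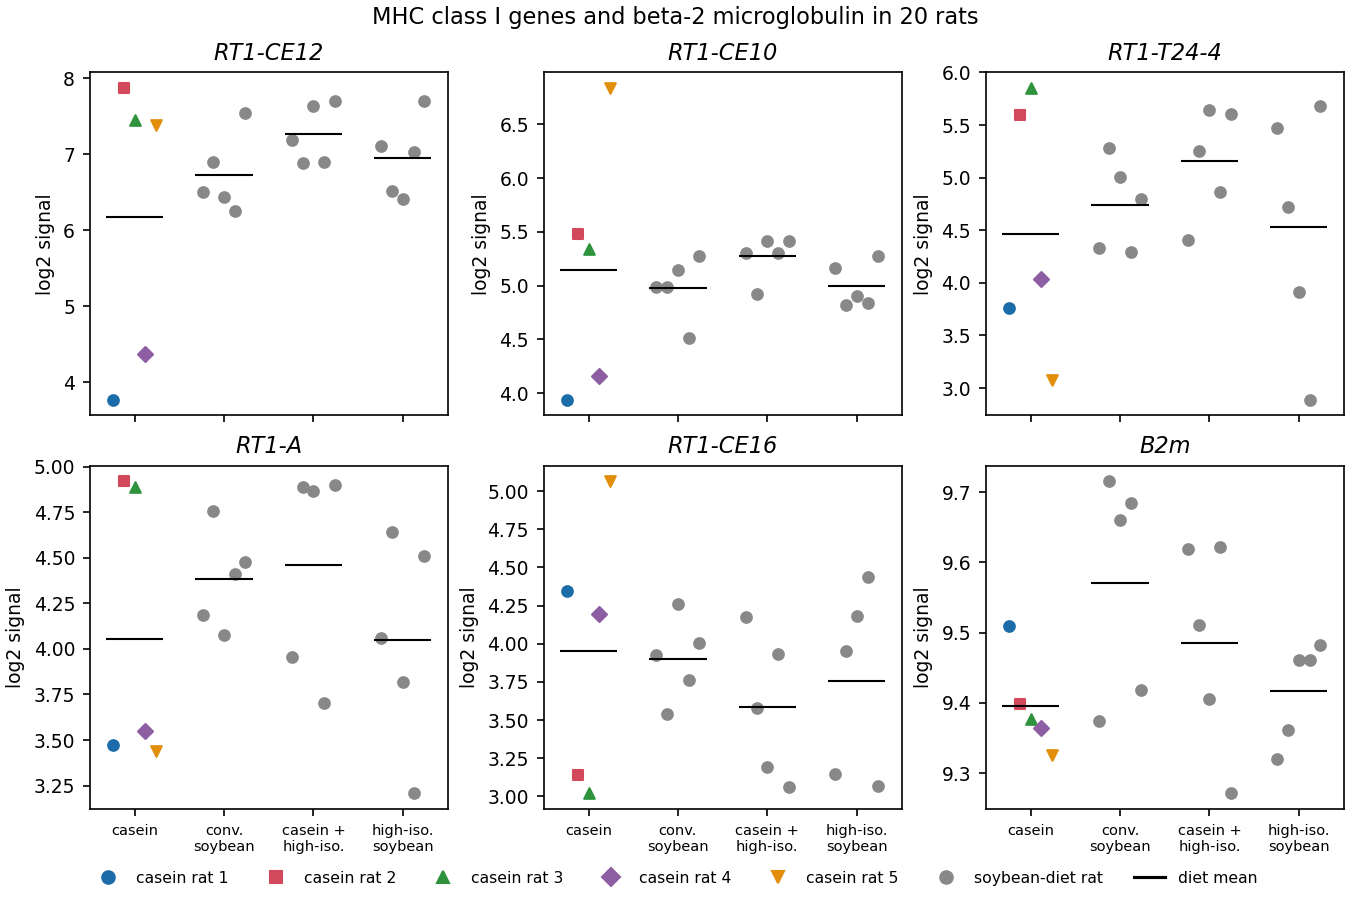
Log2 signal (y axis, a separate scale per panel) of 5 MHC class I genes and of B2m in the 20 rats, with the casein diet left of the 3 soybean diets; coloured markers are casein rats 1 to 5, grey points soybean-diet rats and bars diet means. In RT1-CE12 casein rats 1 and 4, at 3.77 and 4.37, lie below all 15 soybean-diet rats, and in RT1-CE10 rat 5 lies above them at 6.84.

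Whether the spread differed between casein and soybean was tested with limma on absolute deviations from the diet mean over all 27702 probe sets. Of these, 10 were called at a Benjamini-Hochberg adjusted p under 0.05 (0.0361%), all with a larger spread on casein, and 2248 had an unadjusted p under 0.05. The 10 covered 6 genes (0.0446% of genes), of which RT1-CE10 and RT1-CE12 lay above the low limit. RT1-CE10 deviated by a mean of 0.99 on casein and 0.19 on the soybean diets, a difference of 0.80 ± 0.15 (SE, adjusted p = 0.000605, limma). Its SD was 1.17 on casein, against 0.29, 0.20 and 0.21 on the soybean diets, where the 15 rats lay between 4.51 and 5.42. RT1-CE12 deviated by 1.88 on casein and 0.41 on the soybean diets, a difference of 1.47 ± 0.30 (adjusted p = 0.00622, limma), and the 15 soybean rats lay between 6.25 and 7.71. The RT1-CE12 call was lost without casein rat 1 (adjusted p = 0.127, limma), and without the arrays numbered 1 of all diets. The RT1-CE10 call held in every omission of 1 array but was lost without a variance trend in the fit (adjusted p = 0.245, limma). The others, all below the limit, were Mfsd9, Golt1b, Pafah1b3 and Ppip5k1, whose calls were lost without casein rat 5, 2, 4 and either 4 or 5. With deviations taken from the diet median no probe set, those of RT1-CE10 and RT1-CE12 included, was called by limma, and 259 had an unadjusted p under 0.05. On simulated data the test passed unchanged genes more often than its nominal rate.

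The level of casein-fed rats was compared with the mean of the 3 soybean diets by limma over all 20 arrays. It called 593 of 27702 probe sets (2.14%), 233 higher (0.841%) and 360 lower (1.3%) on casein. Without casein rat 5 it called 230, 99 higher and 131 lower, and without casein rats 2 and 4 it called 317 and 312. By gene it called 336 of 13468 (2.49%), 130 higher (0.965%) and 206 lower (1.53%). The split of higher and lower depended on scaling: 339 of 601 calls were higher after quantile normalization and 466 of 684 after centring and scaling each array. Among the 30 brightest genes 1 was called, COX1, lower on casein by -0.27 ± 0.07 (SE, adjusted p = 0.0339, limma), and this call was lost after centring and scaling. It was also lost when any of casein rats 1, 2, 4 and 5 was left out. Among the 100 brightest genes 8 were called, 3 higher and 5 lower, beside the 2.49% of all genes. After centring and scaling, 11 were higher and 1 lower, and without casein rat 5, 1 was higher and 2 lower.

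Car3 was the lower gene of the 100 brightest with the largest difference. It gave 9.31, 8.83, 8.86, 8.78 and 8.57 on casein, against 9.38 to 10.29 in the 15 soybean rats, a difference of -1.03 ± 0.13 (SE, adjusted p = 0.000407, limma), and the groups did not overlap. Pigr, the carrier of immunoglobulin A into bile, differed by -0.29 ± 0.06 (adjusted p = 0.00694, limma). Gpx1 and Cyp2d2 were also called lower, and each call was lost without any of casein rats 1, 2, 4 and 5. Dbi, an acyl-CoA binding protein, was higher on casein by 0.74 ± 0.13 (adjusted p = 0.005, limma), with 9.12 ± 0.07 on casein and 7.78 to 8.99 in the soybean rats. Fabp1 (0.34 ± 0.09) and the lipogenic regulator Thrsp (1.15 ± 0.30) were the other higher genes, and most omissions of a single array ended these calls. The Thrsp call was also lost with the replicate number as a block (adjusted p = 0.0607, limma). After centring and scaling, the Pigr, Gpx1 and Cyp2d2 calls were lost.

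Fatty acid synthesis was the list with the most level calls, 14 of 29 genes higher and 1 lower on casein. Its median difference was 0.71, against -0.03 over all genes. The lists were chosen with earlier results of these data known, so their counts and their order are a description and no test of the lists. Pnpla3, a lipid droplet protein, gave 7.98, 7.38, 8.69, 8.05 and 8.74 on casein and 0.84 to 7.74 on the soybean diets, a difference of 3.57 ± 0.77 (SE, adjusted p = 0.016, limma). The elongase Elovl6 differed by 2.15 ± 0.39 (adjusted p = 0.0047), fatty acid synthase (Fasn) by 1.78 ± 0.43 (adjusted p = 0.0322) and Me1 by 1.65 ± 0.38 (adjusted p = 0.0246), all from limma. The 1 lower gene was the acyltransferase Gpam, by -0.77 ± 0.20 (adjusted p = 0.0485, limma), a call that most omissions of a single array ended. The Fasn and Me1 calls were lost without any of casein rats 2, 3, 4 and 5, and the Pnpla3 call without casein rat 5. The Elovl6 call held in every omission of 1 array. Of the 9 lists in the plot of SD by gene list, it had the largest median SD within casein rats, except without rat 1 or 2, when the MHC list had the largest. It also had the most calls between diets. Its median SD was 0.337 on casein, against 0.415, 0.414 and 0.385 on conventional, casein plus high-isoflavone and high-isoflavone soybean. Without casein rat 5, 8 of the 29 genes were higher and 0 lower. Cholesterol synthesis had 9 of 19 genes higher and 0 lower, or 6 and 0 without casein rat 5. With all arrays in the fit, 0.965% of all genes were higher and 1.53% lower.

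Among genes higher on casein and outside fatty acid and cholesterol synthesis, the largest differences were in Wfdc21 at 1.80 ± 0.21, Fabp5 at 1.72 ± 0.26 (adjusted p = 0.00155, limma) and Commd6 at 1.67 ± 0.24. Fabp2, Aldh1b1 and Ddhd1 were higher by 1.45 ± 0.15, 1.43 ± 0.33 and 1.43 ± 0.19, and the Aldh1b1 call was lost without any of casein rats 1, 3, 4 and 5. Among genes lower on casein, the largest differences were in the growth factor Gdf11 at -1.71 ± 0.30 (adjusted p = 0.00361, limma), the myosin Myo16 at -1.59 ± 0.26 and Cdcp1 at -1.58 ± 0.29, and these 3 calls held in every omission of 1 array. All 3 lay below the low limit on casein, as did 8 of the 10 lower genes with the largest difference. The exceptions were Car3 and the glutathione transferase Gstp3, at 6.19 ± 0.51 on casein, whose call was lost without any of casein rats 2, 3, 4 and 5. Over all genes, 0.965% were called higher and 1.53% lower, the shares beside which the list counts here stand. The respiratory chain list had 5 of 60 higher, Cox7b by 0.78 ± 0.12 and Cox6c by 0.52 ± 0.09 among them, and 2 without casein rat 5. COX1, called lower, was outside this list. Sex-dependent liver genes had 0 higher and 5 lower of 27, or 0 and 3 without casein rat 5. Cyp3a23-3a1, by -0.72 ± 0.13, and Cyp3a18, by -0.94 ± 0.21, were among the 5, and the Cyp3a18 call was lost without any of casein rats 1, 4 and 5. Plasma proteins had 0 higher and 4 lower of 78 (Mup5, Agt, Mbl1 and Mbl2), with a median difference of -0.09. After centring and scaling 4 were higher and 0 lower and the median was 0.07, so no direction can be given for this list.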

How the data were processed

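Liver RNA of 20 rats was measured on Affymetrix 3' arrays, 1 array per rat. The authors normalized the values with the SuperNORM service, per the labels, and deposited them on a scale taken here as log10. The base is not stated in the labels: 18 spike-in probe sets gave a slope of 0.931 ± 0.0225 (SD over 20 arrays) against their known amounts on that base. The deposited log10 values were multiplied to log2. How background was corrected and probes were summarised was not found in the labels. Arrays carry no read depth, and the 5 arrays per diet limit the precision. Nothing in the labels links same-numbered arrays.

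Of 31099 probe sets, 57 controls and 3342 without a value on any array were left out, leaving 27702. Among these, 19157 had 1 gene symbol, 394 several and 8151 none, and the probe set with the highest mean over 20 arrays stood for each of 13468 genes. The level was compared between casein and the mean of the 3 soybean diets with limma 3.58.1 in R 4.3.3, with all 20 arrays in 1 fit. The spread was compared in the same way on absolute deviations from each diet's mean. P-values were Benjamini-Hochberg adjusted over all 27702 probe sets, with a threshold of 0.05, and both fits were tested on simulated data. Named genes were the 30 highest in level, the 30 highest and 10 lowest in SD above the low limit, members of the families and gene lists, and up to 10 called genes each way. The genes, lists and limit were chosen with earlier results of these data known. Alternatives were quantile normalization, centring and scaling of each array, no variance trend, no dim probe sets, a replicate block, other limits and leaving out arrays.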

Additional observations from a re-analysis of the deposited data

Results flagged for a closer look

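Among the 60 genes named by level or by spread, 3 had 1 casein rat separated from the other 4 by more than Dixon's critical value of 0.71. For groups of 5, chance alone marks about 1 in 20 groups, and 3 of 60 is no more than that. Genes named by spread, Me1 and Hhex among them, were picked by the SD of these same rats, so that rate does not hold for them. The 3 genes are therefore given as a description. The stearoyl-CoA desaturase gene Scd was 9.36 in casein rat 1, and the nearest of the others was 9.72 and the farthest 9.83. Malic enzyme, Me1, was 4.82 in the same rat, against 6.38 to 6.69 in the others. The transcription factor gene Hhex was 6.91 in casein rat 2, against 5.16 to 5.37 in the others.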

How the results depend on the processing

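The count of 593 probe sets called for level was 601 after quantile normalization, 684 after centring and scaling, 483 without a variance trend and 665 without the dimmest probe sets. It ran from 230 to 719 when 1 array was left out, with 317, 312 and 230 without casein rats 2, 4 and 5. In alternatives chosen after seeing the data it was 212 without the 2 arrays with a higher lowest value (casein rat 5 and casein plus high-isoflavone rat 1) and 451 without the arrays numbered 1. The 10 calls for spread became 16 after quantile normalization, 18 after centring and scaling, 2 without a trend, 0 with deviations from the median (259 at an unadjusted p under 0.05), 28 without the arrays numbered 1, and 6 to 25 when 1 array was left out. The median SD of 0.187 was 0.194 over all probe sets with 1 symbol, 0.133 from the interquartile range, 0.141 over genes above the limit and 0.174 to 0.187 when a casein rat was left out. The 2892 genes above the limit became 5235 and 1744 with the 75th and 95th percentile as limit and 2688 to 3062 when a casein rat was left out. The 30 brightest genes were the same 30 under both scalings, and 30 and 29 of the most variable were kept. With the replicate number as a block, 718 probe sets were called for level and 11 for spread. Same-numbered arrays of different diets correlated at a median of 0.034 in their deviations, with 12 of 30 pairs over 0.1. Arrays of different numbers correlated at a median of -0.008, with 16 of 120 pairs over 0.1. The 6 pairs of arrays numbered 1 correlated at 0.203 to 0.401, and same-numbered pairs of the numbers 2 to 5 at -0.163 to 0.221. The main fits did not take the numbers as pairs, because the labels do not say what a shared number marks. The block ended the calls of Thrsp, Slco1a4 and Car14 among the named genes. For single genes, 330 settings ended a call and 1888 did not, and none turned a direction. The causes of these changes were not tested.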

Other observations

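Above the low limit there were also 940 probe sets without a single gene symbol, which are in no comparison by gene.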
